A study of Nothobranchius furzeri with 20 samples.

Results

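In the brain of the turquoise killifish (Nothobranchius furzeri) 69 genes had a gap in level that parted the libraries into high and low. These sides are called levels here, although the spread within one could exceed the gap. Within the 69, each gene had its own split of the libraries or shared it with few. The genes were chosen from the values themselves. Counts per gene were scaled to a common library total (CPM, count x 1000000 / library total), 0.1 CPM was added and log2 taken. A gene was kept if its mean was at least 1 CPM and if its sorted values over the 20 libraries had a gap above 1.5 between neighbours, with at least 3 libraries on each side. Of 26739 genes listed, 17835 had a mean of at least 1 CPM and 88 of these had such a gap. Of the 88, 9 parted the libraries exactly as Nfu_g_1_014206 does, split at 100 CPM, and 10 exactly as Nfu_g_1_020841 does, split at 30 CPM. Those 19 were left out, and the remaining 69 genes, 0.387% of the 17835, are described here. The gap, the levels and the split of the libraries are what chose them, so these values are a description and carry no test.

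All libraries came from brains of male fish of strain MZM-04/10p, a strain derived from wild-caught fish. Fish of 9 or 27 weeks had been given DMSO, a solvent, or rotenone, the latter at 1% LC50 (LC50 being the median lethal concentration). Each of the 4 groups held 5 libraries. How long and by which route the fish were exposed, whether rotenone fish also had DMSO, and whether each library is 1 fish is not given in the sources used here. Any p-value therefore weighs a difference against the spread between these libraries, which may be technical. Replicate numbers follow the order of the records and pair nothing across groups.

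The turquoise killifish matures and ages within months and is kept as a model of vertebrate ageing. Rotenone blocks complex I of the mitochondrial respiratory chain and is used to impair respiration. Most genes vary around 1 level between animals of a group. Separate levels between animals are known from many species, for instance where alleles differ in activity or where a gene is induced in some animals and not in others. What sets the levels of these genes was not tested, and in whole brain fewer cells of a type and less RNA per cell cannot be told apart either. The identifiers carry no names: 0 of the 26739 could be matched to the RefSeq gene table of assembly NfurGRZ-RIMD1, so no role, sequence or position is given for any gene, and marker genes of brain or other cell types could not be looked up.

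Libraries held 19433958 to 24159773 counts, so that 1 count was worth 0.0414 to 0.0515 CPM and 3 counts, the limit that a count of 0 allows for counting error only, 0.124 to 0.154 CPM. Between 21375 and 21669 genes had a count. A median library had 28 of the 69 genes at the high level. Replicate 2 of rotenone at 9 weeks had 48 and replicate 4 of DMSO at 9 weeks had 45, against 21 to 38 in the other 9-week libraries and 25 to 32 at 27 weeks. These 2 libraries had 21635 and 21571 genes with a count, within the range of the others. Calls for age without them and replicate 2 of DMSO at 9 weeks are given beside the age results. The first principal component of log2 CPM held 27.7% of the variance and was set positive for 9 weeks. On it replicate 2 of rotenone and replicate 4 of DMSO at 9 weeks stood at 10.9 and 55.5. Libraries of 9 weeks ran from 0.915 to 55.5 and those of 27 weeks from -45.6 to 12.02. The value of 12.02 was that of replicate 4 of DMSO at 27 weeks, and the others of that age ran from -45.6 to -10.3.

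**Figure D1:**
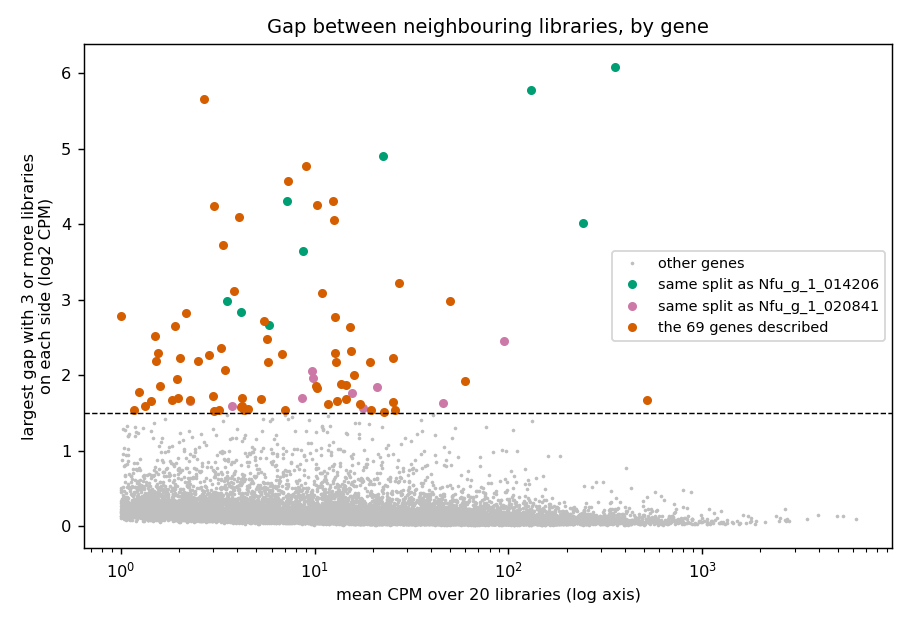
Each point is a gene with a mean of at least 1 CPM. The horizontal axis is its mean over 20 libraries in CPM (log axis) and the vertical axis its largest gap between neighbouring libraries, in log2 CPM, with at least 3 libraries on each side. The dashed line is the limit of 1.5, and the 69 genes described reach from 1.51 to 5.67.

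The gap of the 69 genes had a median of 2.07 on the log2 scale. It was above 2 in 36 genes, above 3 in 12 and above 4 in 8. Low levels varied: 5 genes had 3 or fewer counts in every low library, in 34 genes at least 1 low library was above 1 CPM, and in 19 the median of the low libraries was above 1 CPM. By how often the high level occurred, 30 genes were high in 3 to 5 of the 20 libraries, 22 in 6 to 14 and 17 in 15 to 17. The genes were less abundant than usual, with a median of the gene means of 5.46 CPM against 20.6 CPM for the 17835 genes, and 33 of them (47.8%) had a mean under 5 CPM against 20.0% of the 17835. These means include the low libraries that the rule requires, so the choice of genes bears on this difference. Their median length, as recovered from the deposited tables, was 2090 bases against 2786 bases, and 17.4% against 16.2% were shorter than 1000 bases.

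**Figure D2:**
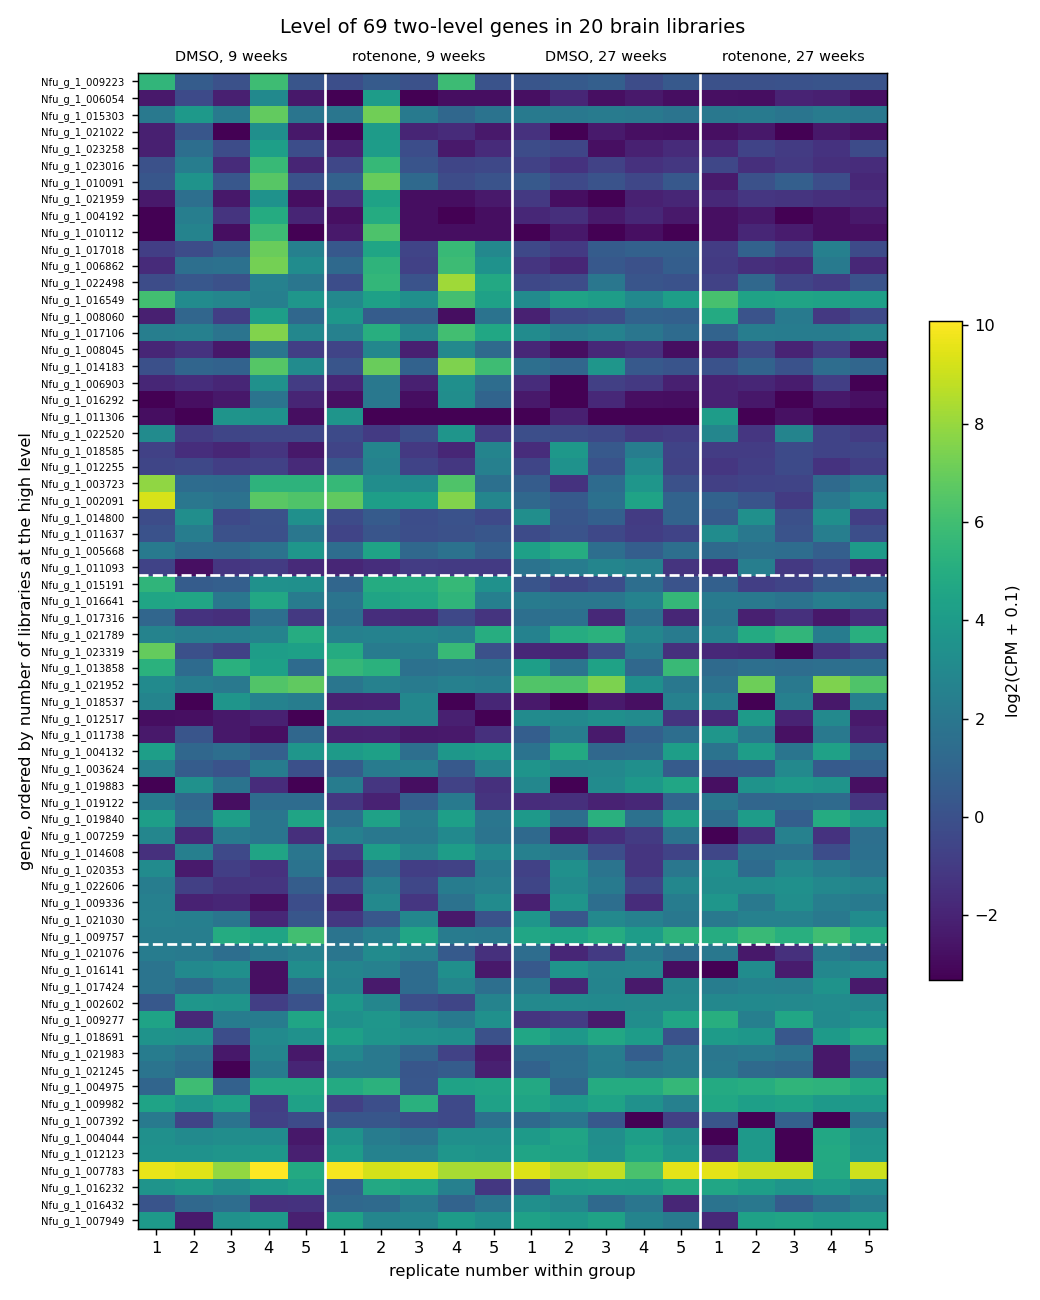
The colour gives log2(CPM + 0.1) for each of the 69 genes (horizontal bands) in each library (vertical strips, by group and replicate number). Genes are ordered by the number of libraries at the high level, and dashed lines part the 30 genes high in 3 to 5 libraries, the 22 high in 6 to 14 and the 17 high in 15 to 17. Bright cells of the upper genes gather in the 9-week groups.

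The genes with the largest gaps were of unlike kinds. Nfu_g_1_011306, with the largest gap of 5.67, was present in 4 libraries and near absent in 16. It stood at 12.3 and 11.4 CPM in replicates 3 and 4 of DMSO at 9 weeks, at 12.6 CPM in replicate 1 of rotenone at 9 weeks and at 17.1 CPM in replicate 1 of rotenone at 27 weeks. The other 16 libraries held 0 to 3 counts, and 12 of them held 0. High libraries thus occurred at both ages and in both treatments. Nfu_g_1_018537, with a gap of 4.24, was split nearly evenly: 9 libraries stood at 5.03 to 12.5 CPM, with a median of 5.77 CPM, and 11 at no more than 4 counts. The high level was met in 4 DMSO libraries against 1 rotenone library at 9 weeks, and at 27 weeks the other way round, in 1 against 3.

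Nfu_g_1_012123 and Nfu_g_1_004044 were low in the same 3 libraries, replicate 5 of DMSO at 9 weeks and replicates 1 and 3 of rotenone at 27 weeks. In those libraries Nfu_g_1_012123 stood at 0.125, 0.189 and 0 CPM, and Nfu_g_1_004044 at 0.0832, 0 and 0 CPM. In the other 17 Nfu_g_1_012123 ran from 5.63 to 28.4 CPM with a median of 13.1 CPM, and Nfu_g_1_004044 from 3.39 to 25.9 CPM with a median of 10.1 CPM. Their levels moved together in the 17 high libraries as well: the ratio of the CPM of Nfu_g_1_004044 to that of Nfu_g_1_012123 stayed between 0.603 and 1.09. The count table does not say whether they share reads, and levels of near-identical or overlapping genes could not be told apart.

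Nfu_g_1_009223, with a gap of 4.77, never fell silent. It stood at 45.12 and 59.7 CPM in replicates 1 and 4 of DMSO at 9 weeks and at 57.97 CPM in replicate 4 of rotenone at 9 weeks, and at 0.765 to 1.56 CPM in the other 17 libraries. The high level was seen at 9 weeks alone, in 3 of 10 libraries, whereas all 10 libraries of 27 weeks were low. Nfu_g_1_010112, with a gap of 4.57, was likewise high in 3 libraries of 9 weeks and belongs to the largest group of genes with a shared split, described further on.

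**Figure D3:**
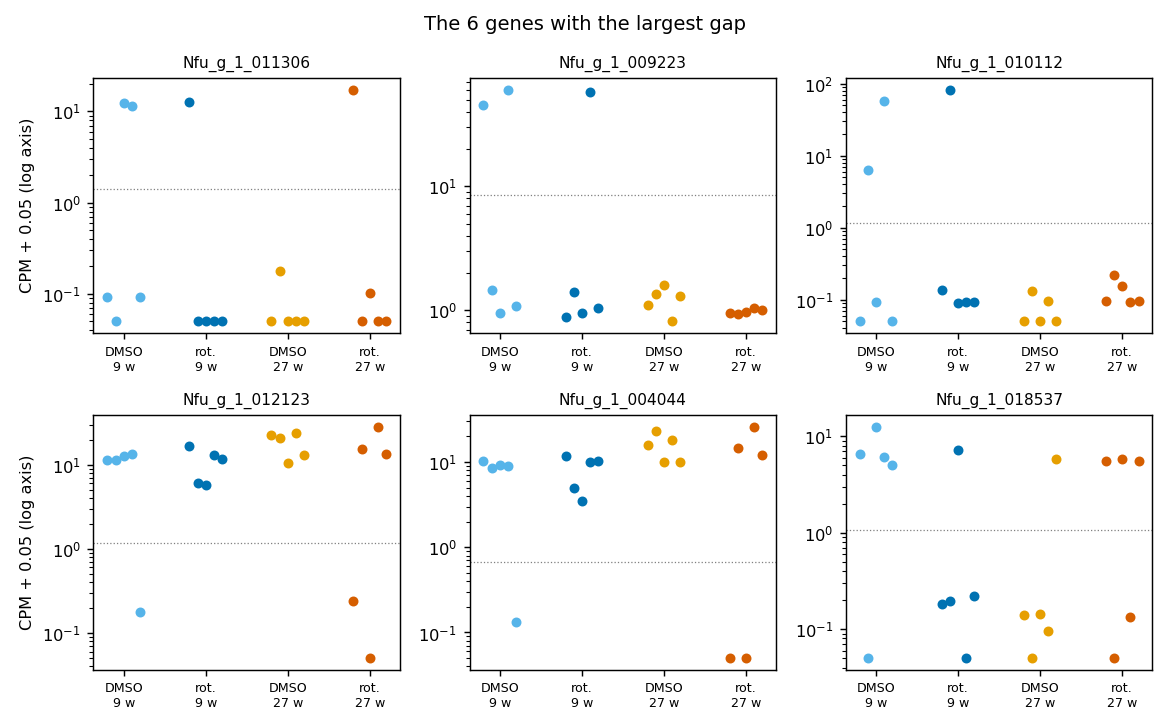
Points are the 20 libraries of the 6 genes with the largest gap, in 4 groups of 5 (rot., rotenone; w, weeks), side by side in replicate order. The vertical axis is CPM + 0.05 on a log axis and the dotted line lies in the gap. Nfu_g_1_012123 and Nfu_g_1_004044 are low in the same 3 libraries.

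How even the high level was differed between genes. The highest of the high libraries was less than 2-fold above the lowest in 9 genes and more than 10-fold above it in 9, with a median of 4.29-fold over all 69. The evenest, named here after its values were seen, was Nfu_g_1_014800, which stood at 9.93 and 10.6 CPM in 2 DMSO libraries of 9 weeks, at 9.72 CPM in 1 DMSO library of 27 weeks and at 10.6 and 10.2 CPM in 2 rotenone libraries of 27 weeks. The other 15 libraries were at 0.405 to 1.81 CPM. Nfu_g_1_016549, whose gap of 1.51 was the smallest of all 69, was as even, at 64.6, 68.5 and 71.3 CPM in 3 libraries of 3 groups and at 5.34 to 22.6 CPM in the other 17. Its small gap came with spread low levels rather than spread high ones.

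High levels were spread more widely in genes high at 9 weeks alone, a group picked out after its values were seen. In the 21 genes with no high library at 27 weeks, the highest high library was a median of 6.95-fold above the lowest, and 1 of them stayed under 2-fold. In the other 48 genes the median was 3.18-fold, with 8 under 2-fold. Of the 21, however, 9 belong to the largest group with a shared split, described further on, and ranged from 5.89-fold to 23.6-fold. In all 9 the same library was the lowest of the high ones, so that 1 library weighs on the median of the 21 through 9 genes. Of all 69 genes, 3 had a second gap above 1.5 and so 3 levels. Nfu_g_1_023319 stood at 0 to 0.903 CPM in 12 libraries, at 4.45 to 4.88 CPM in 3 and at 17.7 to 120.2 CPM in 5. Nfu_g_1_017018 stood at up to 1.77 CPM in 14 libraries, at 5.57 to 7.66 CPM in 3 and at 23.8 to 127 CPM in 3. Its gaps were nearly equal, at 1.62 and 1.60, and its middle level held a rotenone library of 27 weeks at 5.68 CPM. Its place among the genes high at 9 weeks alone is therefore narrow. The third was Nfu_g_1_014183, with gaps of 2.23 and 1.58. Its middle level also held a library of 27 weeks, of DMSO, which was the highest of its low libraries at 13.0 CPM.

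The 69 genes parted the 20 libraries in 51 ways. In 43 genes the split was the gene's own, 12 genes shared theirs in 6 pairs, and the last 2 splits were shared by 9 and by 5 genes. No gene was high exactly where another was low. These counts describe the chosen genes and are no test, since genes of 1 split were chosen on the same libraries.

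The largest group held 9 genes that were high in replicates 2 and 4 of DMSO and replicate 2 of rotenone at 9 weeks, and low in the other 17 libraries. They are Nfu_g_1_004192, Nfu_g_1_006054, Nfu_g_1_010091, Nfu_g_1_010112, Nfu_g_1_015303, Nfu_g_1_021022, Nfu_g_1_021959, Nfu_g_1_023016 and Nfu_g_1_023258. Each of them was high to a lesser degree in replicate 2 of DMSO. There their CPM ran from 0.709 to 14.7 with a median of 5.01, against 8.01 to 115.8 with a median of 30.4 in replicate 4 of DMSO, and 16.2 to 145.2 with a median of 30.4 in replicate 2 of rotenone. Replicate 4 exceeded replicate 2 of DMSO by 4.01-fold to 11.3-fold, and the lowest of the 3 libraries was replicate 2 of DMSO in all 9 genes. The highest library differed: it was replicate 2 of rotenone in 6 genes and replicate 4 of DMSO in 3.

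The most abundant of these in its high libraries was Nfu_g_1_015303. At 9 weeks, replicates 1 to 5 of DMSO had 4.23, 14.7, 4.52, 116 and 3.66 CPM of Nfu_g_1_015303, and those of rotenone had 3.77, 145, 4.35, 2.14 and 3.31 CPM. The values of 27 weeks were 4.31, 4.01, 4.67, 4.14 and 3.44 CPM with DMSO and 3.97, 4.47, 3.6, 4.72 and 4.07 CPM with rotenone. Its 17 low libraries were even, between 2.14 and 4.72 CPM, whereas Nfu_g_1_010112 had at most 4 counts in the same libraries. Nfu_g_1_010112 stood at 6.29 and 57.3 CPM in the 2 DMSO libraries and at 81.8 CPM in the rotenone library, and at 0 to 0.169 CPM elsewhere. In the order of the count table, which may but need not follow the genome, Nfu_g_1_010091 and Nfu_g_1_010112 are 2 places apart. Over the whole table, 61 of 19452 tested genes had these 3 libraries as their highest, against a mean of 17.1 genes for any choice of 3 libraries and a largest value of 403, and 51 other choices held more genes.

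The second group held 5 genes, Nfu_g_1_006903, Nfu_g_1_008045, Nfu_g_1_014183, Nfu_g_1_016292 and Nfu_g_1_017106, high in replicate 4 of DMSO and in replicates 2, 4 and 5 of rotenone at 9 weeks. Of the 4 high libraries, replicate 5 of rotenone was the lowest in all 5 genes. Nfu_g_1_014183 stood at 92.9 CPM in the DMSO library and at 128, 183 and 61.03 CPM in the 3 rotenone libraries. Its other 16 libraries ran from 0.855 to 13.0 CPM. Nfu_g_1_017106 stood at 183, 33.4, 65.9 and 25.7 CPM in the same order, and at 1.795 to 8.80 CPM elsewhere. The order of the other 3 high libraries differed between genes: replicate 4 of DMSO was highest in 2 and replicate 4 of rotenone in 3. Tested genes with these 4 libraries highest numbered 38, against a mean of 4.01 for any choice of 4 libraries and a largest value of 252, which put this choice at rank 59.

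**Figure D4:**
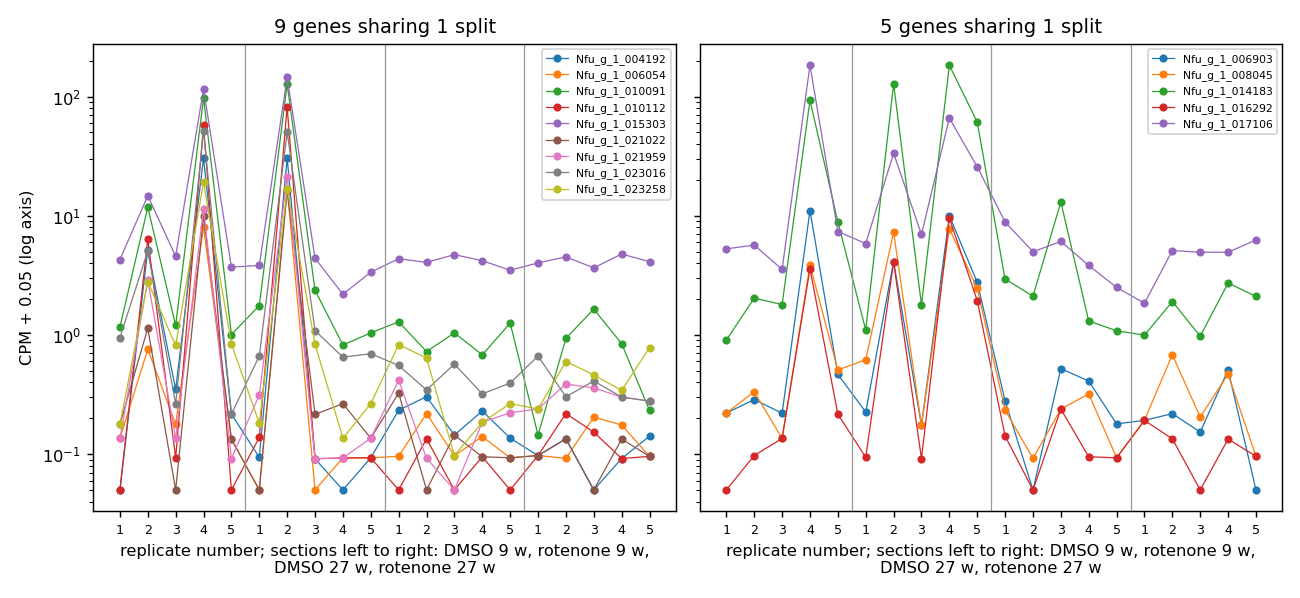
Lines join the values of 1 gene over the 20 libraries, given by replicate number within the 4 groups, with CPM + 0.05 on a log axis. On the left, 9 genes peak in the same 3 libraries of 9 weeks, with replicate 2 of DMSO the lowest peak. On the right, 5 genes peak in 4 libraries of 9 weeks, with replicate 5 of rotenone the lowest.

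Among the 6 pairs, Nfu_g_1_002091 and Nfu_g_1_003723 kept the steadiest ratio in their high libraries. The pairs had from 3 to 17 high libraries, and a range readily widens with more of them. Nfu_g_1_002091 stood at 611, 101 and 83.8 CPM in replicates 1, 4 and 5 of DMSO at 9 weeks and at 112 and 187 CPM in replicates 1 and 4 of rotenone. Nfu_g_1_003723 stood at 236, 40.5 and 41.2 CPM and at 51.2 and 84.3 CPM in the same libraries. The ratio of the first to the second lay between 2.04 and 2.59 in these 5 libraries, but between 0.727 and 4.29 over all 20. At 27 weeks both were highest in replicate 4 of DMSO, at 22.04 and 12.9 CPM. Of the 21 genes with no high library at 27 weeks, that library was the highest of 27 weeks in 3.

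Both levels occurred at both ages in 43 of the 69 genes, and in all 4 groups in 13. In 21 genes every high library was of 9 weeks, in 1 gene every high library was of 27 weeks, in 3 genes every low library was of 9 weeks, and in 1 gene every low library was of 27 weeks. The lean towards 9 weeks lay in genes that were high in few libraries. Of 30 genes high in 3 to 5 libraries, 23 had more high libraries at 9 weeks and 4 at 27 weeks. Among the 22 genes high in 6 to 14 libraries these numbers were 9 and 12, and among the 17 high in 15 to 17 they were 8 and 8. At 9 weeks, replicate 4 of DMSO was high in 21 of the 30 genes and replicate 2 of rotenone in 20, so the same libraries were counted many times. How often the highest libraries of any gene were of 9 weeks was not counted, so these numbers only describe the chosen genes. The 21 genes high at 9 weeks alone share libraries: 20 were high in replicate 4 of DMSO, 18 in replicate 2 of rotenone and 17 in both. None was high in replicate 3 of DMSO, and replicate 3 of rotenone was high in 1.

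**Figure D5:**
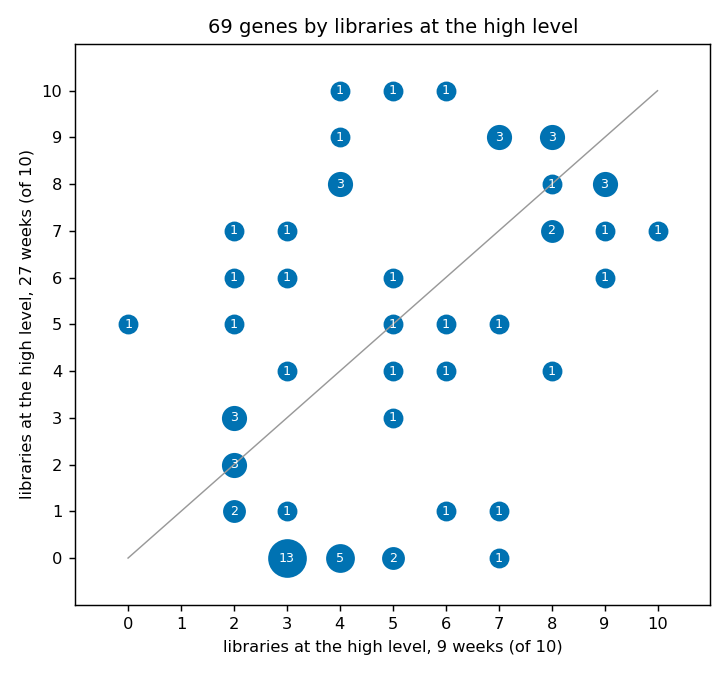
Each disc stands for the genes (number inside) with a given number of high libraries among the 10 of 9 weeks (horizontal axis) and the 10 of 27 weeks (vertical axis), both treatments together. The line marks equal numbers. The largest disc holds 13 genes high in 3 libraries of 9 weeks and none of 27 weeks.

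Age, which the choice of genes did not use, was tested on the whole table with edgeR's quasi-likelihood test, as the mean of the age effects in DMSO and in rotenone fish. Of the 69 genes, 62 had enough counts to be tested, and the other 7, all high in 3 or 4 libraries, did not pass the filter on low counts. At a Benjamini-Hochberg adjusted p below 0.05, 22 of the 62 (35.5%) were called, while 8390 of all 19452 genes tested were called. Lower at 27 weeks were 17 (27.4%, against 23.3% of all genes) and higher 5 (8.06%, against 19.9%). At an unadjusted p below 0.05 there were 26 (41.9%), against 51.6% of all genes. A share called near or below that of all genes is no result about the 69. Their changes were large and poorly determined: the median size of the log2 change was 0.99 with a median SE of 0.71, against 0.20 and 0.09 over all genes, and the median signed change was 0.06 against 0.01. The rule requires a wide spread between libraries, so the choice of genes bears on both the sizes and the SEs.

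Many of the calls for age rested on few libraries. In none of the 22 called genes were the ages free of overlap. How usual such overlap is among all genes called was not counted, so this only describes the 22. All 15 tested genes that were high at 9 weeks alone were called as lower at 27 weeks, by -4.92 to -2.80 on the log2 scale. They were picked out for having no high library at 27 weeks. Their direction was fixed by this, and neither the calls nor the sizes are support for a change with age. Among the other 47 tested genes 7 were called (14.9%), a share left over from the same cut and so no result either. An exact permutation test of rank sums, 10 against 10 libraries and two-sided, which gives no weight to how high a high library is, called 10 of the 62 genes (16.1%) against 40.3% of all genes, 8 of them among the 22. Without the 3 libraries high in the group of 9 genes, edgeR called 12 of 63 against 36.5% of all genes, all of them among the 22, and 8 of the 15 were still called. Those 3 libraries were picked for being high in some of these genes, so fewer calls were in part fixed by that choice.

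Nfu_g_1_015191 followed age most closely, with 17 of 20 libraries on the side of their age. In replicates 1 to 5 of DMSO at 9 weeks Nfu_g_1_015191 stood at 43.9, 1.37, 1.58, 10.73 and 10.4 CPM, and in those of rotenone at 9 weeks at 2.06, 30.5, 31.04, 50.4 and 10.8 CPM. At 27 weeks it stood at 1.01, 0.59, 0.801, 2.79 and 0.99 CPM in DMSO and at 1.61, 0.463, 0.566, 1.253 and 1.55 CPM in rotenone fish. Thus 7 of 10 libraries of 9 weeks and 0 of 10 of 27 weeks were high, 3 of the 7 in DMSO and 4 in rotenone fish, and the ages overlapped through the 3 low libraries of 9 weeks. With edgeR its log2 level fell by 3.999 ± 0.65 (SE), with an adjusted p of 9.25e-05. It was named for following age and is among the genes high at 9 weeks alone. Its direction was thus fixed by the choice, and the p-value is no support for a change with age.

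Nfu_g_1_023319 had the largest fall with age among the 62 genes that passed the filter, and it and Nfu_g_1_009757, named after its values were seen, came next in following age, with 16 of 20 libraries each. Nfu_g_1_009757 was high in 4 libraries of 9 weeks and in all 10 of 27 weeks. At 9 weeks, replicates 1 to 5 of DMSO had 120.2, 0.851, 0.511, 17.7 and 19.5 CPM of Nfu_g_1_023319, and those of rotenone had 30.6, 4.71, 4.88, 51.9 and 0.903 CPM. The values of 27 weeks were 0.183, 0.169, 0.754, 4.45 and 0.258 CPM with DMSO and 0.189, 0.169, 0, 0.292 and 0.594 CPM with rotenone. High libraries were 7 of 10 at 9 weeks and 1 of 10 at 27 weeks, the latter being replicate 4 of DMSO, and the highest value, in replicate 1 of DMSO at 9 weeks, was far above the others. In log2 it fell by 5.49 ± 1.06 (SE), and edgeR's adjusted p was 0.000441. It was named for this fall and for following age, so the p-value adds no separate support for a change with age. In the count table Nfu_g_1_023319 stands next to Nfu_g_1_023258 of the group of 9 genes, from which it differed in 7 of 20 libraries.

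Nfu_g_1_023016, of the group of 9 genes, had the second largest fall among the genes that passed the filter. With no filter, other genes of that group fell further, Nfu_g_1_010112 by 8.09 ± 1.96 in log2 (SE), Nfu_g_1_004192 by 6.05 and Nfu_g_1_021022 by 5.18. Each library of 27 weeks held 0 to 6 counts of these 3 genes, so the size of their falls is poorly determined. All 3 reached a mean of 1 CPM through libraries of 9 weeks alone. A fall was thus fixed by how they were chosen and is no support for a change with age. Nfu_g_1_023016 stood at 0.898, 5.01, 0.213, 51.4 and 0.166 CPM in replicates 1 to 5 of DMSO and 0.614, 50.2, 1.03, 0.6 and 0.645 CPM in those of rotenone at 9 weeks, and at 0.228 to 0.614 CPM in the 10 libraries of 27 weeks. Away from its 3 high libraries the ages overlapped. In log2 it fell by 4.92 ± 1.17 (SE), with an edgeR adjusted p of 0.00248. Without those 3 libraries it fell by 0.61 ± 0.33 (edgeR adjusted p = 0.159). They are all of its high libraries, so the loss of the call was fixed by leaving them out. It was high at 9 weeks alone, so its fall is no support for a change with age either. The exact permutation test of rank sums did not call it (adjusted p = 0.0651).

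The largest rises with age were those of Nfu_g_1_012517 and Nfu_g_1_011738. Both were named for these rises, so their p-values add no separate support for a change with age. In replicates 1 to 5 of DMSO at 9 weeks Nfu_g_1_012517 stood at 0.0428, 0.0473, 0.0852, 0.136 and 0 CPM, and in those of rotenone at 9 weeks at 6.8, 6.99, 7.08, 0.129 and 0 CPM. At 27 weeks it stood at 8.75, 8.18, 9.99, 8.68 and 0.301 CPM in DMSO and at 0.189, 15.9, 0.154, 7.73 and 0.0914 CPM in rotenone fish. Nfu_g_1_012517 was high in no DMSO library but 3 rotenone libraries at 9 weeks, against 4 and 2 at 27 weeks, so the ages overlapped in rotenone fish. The rise was 3.46 ± 1.08 (SE) in log2, for which edgeR gave an adjusted p of 0.0147.

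At 9 weeks, replicates 1 to 5 of DMSO had 0.0855, 1.04, 0.0852, 0.0453 and 2.12 CPM of Nfu_g_1_011738, and those of rotenone had 0.132, 0.146, 0.0828, 0.0858 and 0.258 CPM. The values of 27 weeks were 1.51, 5.31, 0.0943, 1.62 and 2.8 CPM with DMSO and 13.2, 3.92, 0.0515, 4.14 and 0.137 CPM with rotenone. Nfu_g_1_011738 was high in 2 of 10 libraries of 9 weeks and in 7 of 10 of 27 weeks. In log2 it rose by 3.29 ± 0.85 (SE), at an edgeR adjusted p of 0.00473. It was not called by the exact permutation test of rank sums (adjusted p = 0.0549). The highest value was in replicate 1 of rotenone at 27 weeks, and both groups of that age also held low libraries. Nfu_g_1_011637, 8 places from it in the count table, was high in 5 of the libraries in which Nfu_g_1_011738 was high and in no other. Nfu_g_1_011093, named after its values were seen, was the 1 gene high at 27 weeks alone. It stood at 3.39, 4.77, 6.65, 5.67 and 0.301 CPM in DMSO and 0.189, 5.18, 0.36, 0.669 and 0.137 CPM in rotenone fish of that age, and at 0.0473 to 0.556 CPM at 9 weeks.

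None of the 62 tested genes passed edgeR's adjusted threshold for rotenone at either age, which does not show that they did not differ. At 27 weeks 0 were called against 0.391% of all genes, 6 had an unadjusted p below 0.05 (9.68%, against 14.4% of all genes), and DESeq2 called 3 of 61 against 2.69% of all genes. At 9 weeks 0 were called against 0.0257% of all genes, 8 had an unadjusted p below 0.05 (12.9%, against 6.99%), and DESeq2 called 3 of 59 against 0.549%. Tested for a rotenone effect that differed by age, 0 were called against 0.0206%, 7 had an unadjusted p below 0.05 (11.3%, against 10% of all genes), and DESeq2 called 4 of 61 against 0.747%. The median SE of the log2 rotenone effect was 1.00 at 27 weeks and 0.98 at 9 weeks for these genes, against 0.12 at either age over all genes. These SEs, on which the choice of genes bears, limit what could be detected at either age.

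Counting libraries, 33 genes were high more often in DMSO, 29 more often in rotenone and 7 equally often, and 66 had both levels in both treatments. The splits closest to treatment had 14 of 20 libraries on the side of their treatment and were those of 4 genes. Of these, Nfu_g_1_009336 and Nfu_g_1_022606 were each high in 8 rotenone and 4 DMSO libraries, and Nfu_g_1_009277 and Nfu_g_1_013858 had the larger gaps. In replicates 1 to 5 of DMSO at 9 weeks Nfu_g_1_009277 stood at 21.5, 0.189, 4.86, 4.89 and 23.7 CPM, and in those of rotenone at 9 weeks at 10.6, 12.9, 7.33, 4.33 and 10.6 CPM. At 27 weeks it stood at 0.321, 0.422, 0.0943, 9.4 and 23.9 CPM in DMSO and at 33.4, 5.39, 24.03, 8.31 and 11.3 CPM in rotenone fish. Nfu_g_1_009277 was low in 4 libraries, all of DMSO fish, and in none of rotenone fish. It and Nfu_g_1_013858 were named for following treatment, so their patterns are no support for an effect of rotenone.

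At 9 weeks, replicates 1 to 5 of DMSO had 37.1, 2.46, 36.4, 19.4 and 2.45 CPM of Nfu_g_1_013858, and those of rotenone had 49.2, 37.1, 3.1, 3.52 and 3.18 CPM. The values of 27 weeks were 17.9, 3.5, 21.2, 2.25 and 54.1 CPM with DMSO and 2.41, 2.86, 2.62, 2.92 and 2.97 CPM with rotenone. Nfu_g_1_013858 was high in 3 of 5 libraries of each DMSO group and in 2 of 5 rotenone libraries at 9 weeks, and all 5 rotenone libraries of 27 weeks were low and even. None of the 4 genes was called for rotenone at either age by edgeR.

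The most abundant of the 69 genes was Nfu_g_1_007783, with a mean of 521 CPM. It stood at 238 CPM or more in 17 libraries, up to 1084 CPM, and at 28.4 CPM in replicate 5 of DMSO at 9 weeks, 74.8 CPM in replicate 4 of DMSO at 27 weeks and 26.7 CPM in replicate 4 of rotenone at 27 weeks. Per length it stood at a median of 393 RPKM (CPM per 1000 bases of gene) in its high libraries, the highest of the 69 genes, whose median was 6.09.

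Some splits lay next to those left out. Nfu_g_1_014608 differed by 1 library from the split of Nfu_g_1_014206, and Nfu_g_1_009336, Nfu_g_1_022606 and Nfu_g_1_020353 by 1 library each from that of Nfu_g_1_020841. The other 65 genes differed from both by 5 or more libraries. Nfu_g_1_009336 and Nfu_g_1_022606 were low in replicate 5 of DMSO at 9 weeks, at 0.79 and 1.46 CPM, the highest value among their 8 low libraries. Both shared their split, and its 12 high libraries were the 12 highest in 368 of the 19452 tested genes. The mean for any choice of 12 libraries was 0.154 genes and the largest value 482, which put this choice at rank 3. Having these libraries highest is thus not particular to the pair.

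The limit on the gap was met narrowly by Nfu_g_1_016549 at 1.51 and Nfu_g_1_016432 at 1.53, and missed narrowly by Nfu_g_1_008479 at 1.48 and Nfu_g_1_005336 at 1.47. Nfu_g_1_016432 stood at 1.03 CPM or more in 17 libraries and at 0.172 to 0.291 CPM in 3. Nfu_g_1_008479 stood at 35.8 to 75.5 CPM in 13 libraries and at 6.996 to 12.8 CPM in 7, and Nfu_g_1_005336 at 1.799 to 26.5 CPM in 16 and at 0 to 0.585 CPM in 4. The count of genes therefore depends on where the limit is set.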

How the data were processed

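RNA of whole brains was sequenced from TruSeq libraries, and the deposited table gives raw counts per gene, made by the authors with featureCounts 1.4.6-p4 after STAR 2.4.1d and bcl2fastq 1.8.4, per the submitters' processing notes. For build, annotation and strand setting the answer is: not given in the sources used here. Hence overlapping genes and near-identical copies could not be told apart. The authors' deposited RPKM values served only to recover gene lengths. They divide by library totals recycled down the gene list: with those totals 100% of 431241 values above 0 were recovered, and with each library's own total 8.17%. RPKM in the report were recomputed with own totals.

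Counts were divided by the library total and multiplied to CPM for the choice of genes and for all levels. Tests used edgeR 4.0.16 in R 4.3.3 (TMM factors 0.980 to 1.02, filterByExpr, robust quasi-likelihood fit with 4 group means, Benjamini-Hochberg adjustment over 19452 genes holding 99.96% of counts, biological coefficient of variation 0.215). DESeq2 1.42.0, other scalings, no filter, a rank test and leaving out each library were alternatives, as were other limits of the rule. Leaving out the 3 libraries shared by the group of 9 genes was chosen after seeing the data. The tests were checked on simulated data. Python 3.11.15 with pandas 2.3.3 was used for tables.

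The genes and the rules below were chosen with earlier results of these data known. Genes were named if they had 1 of the 6 largest gaps, shared a split with at least 2 others, had 1 of the 2 largest rises or falls among those called, had 1 of the 2 highest means or the 2 smallest gaps, missed the limit as 1 of the nearest 2, followed age or treatment most closely, or had 3 levels. The partner gene Nfu_g_1_003723, the neighbours of the splits left out and the genes said to be so were named after their values were seen.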

Additional observations from a re-analysis of the deposited data

Results flagged for a closer look

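Of 40 sets of 5 libraries examined, 8 held a library that stood far from the other 4 by Dixon's test, where chance gives about 1 in 20, or 2. Replicate 4 of DMSO at 27 weeks had the fewest genes with a count of its group, 21427 against 21600 in the nearest library. The same library was the highest of its group for Nfu_g_1_023319, at 4.45 CPM against 0.754 CPM in the nearest, and for Nfu_g_1_015191, at 2.79 CPM against 1.01 CPM. Replicate 1 of DMSO at 9 weeks was the highest of its group for Nfu_g_1_023319, at 120.2 CPM against 19.5 CPM, and for Nfu_g_1_015191, at 43.9 CPM against 10.7 CPM. Nfu_g_1_023016 stood apart in replicate 4 of DMSO at 9 weeks, at 51.4 CPM against 5.01 CPM, and in replicate 2 of rotenone at 9 weeks, at 50.2 CPM against 1.03 CPM. Nfu_g_1_012517 was low in replicate 5 of DMSO at 27 weeks, at 0.301 CPM against 8.18 CPM in the nearest library. Genes chosen for separate levels meet such a test readily, so that the 7 findings on single genes are no further evidence. The finding on genes with a count came from 12 sets of library measures and could readily arise by chance.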

How the results depend on the processing

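The genes named for age kept the direction of their change under every alternative run. They were chosen for their changes, and the other results are counts, which cannot reverse. Genes called for age numbered 22, against 12 without the 3 libraries shared by the group of 9 genes and 10 by the exact permutation test of rank sums, of which 8 were among the 22, and leaving out single libraries gave 18 to 25. Nfu_g_1_023016 lost its call without those 3 libraries (log2 change -0.61, edgeR adjusted p = 0.159). They are all of its high libraries, so this loss was fixed. The other 4 genes named for age kept theirs in all 24 edgeR and DESeq2 alternatives, 20 of which left out a single library. These 4 had been named for large changes or for following age. The exact permutation test of rank sums called them except Nfu_g_1_011738 (adjusted p = 0.0549). Counts called for rotenone went from 0 to 3 at 27 weeks, 3 at 9 weeks and 4 for the difference between ages with DESeq2. Leaving out single libraries gave 0 to 1 at 27 weeks, with 1 gene called without replicate 2 or without replicate 5 of rotenone, and 0 in the other comparisons. The number of genes chosen was 36 when the gap had to exceed 2, 112 when 2 libraries on a side sufficed, 36 with a mean of at least 5 CPM, and 60 to 75 without single libraries. Different splits numbered 29 with a gap above 2, 29 with a mean of at least 5 CPM, and 47 to 54 without single libraries. The 5 genes with 3 or fewer counts in every low library became 3 with 0.5 CPM added, 9 with the lower of the other gap limits tried, 15 when 2 libraries on a side sufficed, 3 when 4 were required, 8 with a mean of at least 0.5 CPM and 2 with at least 5 CPM. Without single libraries they numbered 3 to 9, with 9 without replicate 5 of rotenone at 9 weeks and 3 without replicate 4 of DMSO at 27 weeks. With no filter on low counts 28 of 69 genes were called for age against 36.2% of all genes. No paired analysis was possible because the labels carry no replicate numbers shared between groups.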
